A study of Mus musculus and Homo sapiens with 22 samples.

Results

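Sites occupied by the homeodomain protein PROX1 were examined at 8 genes of neuronal fate: the basic helix-loop-helix factors Neurog1, Neurog2, Neurod1 and Neurod2, the zinc finger protein Myt1l, the POU factor Pou3f2, the repressor Rest and the dendritic microtubule protein Map2. A peak belonged to a gene when its summit lay in the gene body or within 50 kb of it. The 8 genes stand among 21938 mouse and 20033 human protein-coding genes. They held 18 of 50159 peaks in mouse liver, 23 of 40531 in mouse embryonic fibroblasts (MEFs) and 7 of 14369 in human Hep3B cells.

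The assay was CUT&RUN: an antibody tethers a nuclease to chromatin, and the DNA it releases is sequenced. The 22 samples formed 6 groups, an antibody and an IgG group for each material. Liver came from wild-type C57BL/6J mice aged 2 to 3 months, as nuclei isolated from homogenized tissue. Endogenous PROX1 was captured with a PROX1 antibody (5 samples, and 5 with IgG). Primary MEFs from wild-type C57BL/6N embryos carried lentiviral rtTA and tetO-FLAG-mmProx1, received doxycycline at 2 μg/ml for 2 days and were profiled with a FLAG antibody (3 samples, and 3 with IgG). Hep3B, a human hepatocellular carcinoma line, carried pLIX-Puro-hsPROX1 as puromycin-selected stable lines and was given the same doxycycline dose and time, again with a FLAG antibody (3 samples, and 3 with IgG). The IgG samples of the cultures also overexpressed the factor. Each peak list pools the antibody samples of 1 group, so depth per sample and spread between replicates are unknown, no p-value between materials can be given, and a missing peak means only that none was listed. Tissue, antibody and origin of PROX1 change together between liver and the cultures and cannot be told apart, and MEFs and Hep3B differ in both cell type and species.

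Neurogenins start the neuronal programme in progenitors, and the NeuroD factors act after them in differentiating neurons. POU3F2 works with proneural factors in neuronal reprogramming, and MYT1L is a zinc finger repressor that holds down the programmes of other lineages. REST does the opposite outside the nervous system: it recruits corepressors to neuronal genes and keeps them silent. MAP2 marks the dendrites of mature neurons, and PROX1 itself is known both for hepatocyte and lymphatic fates and for neurogenesis.

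Promoter peaks, with the summit no more than 1 kb from a transcription start site (TSS) of the gene, differed in number between the materials. Liver had them at 0 of the 8 genes, where 28.3% of all protein-coding genes had one. In MEFs, 4 of 8 genes had one (Neurog1, Myt1l, Rest and Map2), against 56.5% of all genes. In Hep3B, REST and MAP2 had one, 2 of 8, against 45.2%. Rest and Map2 were thus the members with a promoter peak in both cultures. The same pattern, both cultures and not liver, held for 18 of the 66 related genes described below. The share of all protein-coding genes with this pattern was not computed. In MEFs, Neurod2 was the member whose TSS lay farthest from its nearest summit of any kind, at 9707 bp. The values below give the summit −log10 p of the authors' peak caller and its percentile within the list, where 100 is the strongest peak. These values are not comparable between lists: a median peak had 12.2 in the liver list, 5.96 in the MEF list and 6.44 in the Hep3B list.

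Windows around 5 of the 6 promoter summits are shown first, because the results turn on these peaks. Each reads 5′ to 3′ in the direction of the gene, covers up to 200 bases around the summit and stops short of annotated untranslated sequence. Capitals mark 4 short motifs on either strand: the GC box GGGCGG, the nuclear receptor hexamer AGGTCA, the CCAAT box and AGNCGNCT, the centre of the PROX1 consensus. The mouse windows (build mm10) are those of Neurog1, chr13:56252179-56252378, minus strand; Myt1l, chr12:29894754-29894953, plus strand; Rest, chr5:77265344-77265490, plus strand; and Map2, chr1:66175053-66175252, plus strand. The human window (hg38, plus strand) is that of REST, chr4:56908465-56908664.
Neurog1, MEF: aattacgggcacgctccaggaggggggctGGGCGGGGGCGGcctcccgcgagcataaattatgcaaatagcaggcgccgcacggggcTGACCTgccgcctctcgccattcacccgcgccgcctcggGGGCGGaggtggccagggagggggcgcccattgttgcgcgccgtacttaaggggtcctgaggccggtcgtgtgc
Myt1l, MEF: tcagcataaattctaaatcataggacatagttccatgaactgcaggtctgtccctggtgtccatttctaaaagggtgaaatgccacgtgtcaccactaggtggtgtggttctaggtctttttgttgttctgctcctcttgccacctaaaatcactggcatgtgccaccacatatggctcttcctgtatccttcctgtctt
Rest, MEF: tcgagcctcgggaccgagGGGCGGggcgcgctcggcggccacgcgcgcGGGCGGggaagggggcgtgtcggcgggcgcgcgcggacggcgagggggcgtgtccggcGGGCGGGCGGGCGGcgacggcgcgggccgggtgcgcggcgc
Map2, MEF: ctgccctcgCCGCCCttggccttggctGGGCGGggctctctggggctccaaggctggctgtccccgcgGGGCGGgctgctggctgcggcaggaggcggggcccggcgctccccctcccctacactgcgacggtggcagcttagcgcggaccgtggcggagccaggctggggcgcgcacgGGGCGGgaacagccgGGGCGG
REST, Hep3B: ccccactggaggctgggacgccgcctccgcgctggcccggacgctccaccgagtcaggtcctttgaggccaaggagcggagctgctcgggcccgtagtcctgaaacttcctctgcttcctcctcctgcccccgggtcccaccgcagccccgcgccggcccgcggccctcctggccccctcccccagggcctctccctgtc

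GC content separated these windows. It was 70.5% at Neurog1, 88.4% at Rest and 79.0% at Map2 in the mouse, and 74.5% at REST in human, but 45.5% at Myt1l. The printed windows held 3 GC boxes at Neurog1, 5 at Rest and 5 at Map2, and 0 at Myt1l and REST. Of the windows printed above, Neurog1 alone held the nuclear receptor hexamer. The promoter window not printed, that of MAP2 in Hep3B, held 1 PROX1 consensus centre and 3 GC boxes, with a GC content of 82.5%.

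Rest, the repressor of neuronal genes in other tissues, had a promoter peak in both cultures. In MEFs, the summit lay 47 bp upstream of the first TSS of the gene (mm10, chr5:77265172-77266699, 1528 bp wide), with a −log10 p of 6.39 at percentile 60.6 and an area under the significance curve of 1109. In Hep3B, a peak of 1964 bp spanned the human gene's start (hg38, chr4:56907659-56909622). Its summit lay in an intron, 689 bp downstream of the outermost TSS and 451 bp upstream of the nearest one, with a −log10 p of 6.06 at percentile 38.0 and an area of 968. In liver, the nearest summit was 19503 bp upstream of Rest, in a 224-bp intergenic peak with a −log10 p of 8.98 at percentile 10.9. The promoter peaks of the cultures were therefore wide and of middling rank, and the liver peak was narrow, distant and near the bottom of its list. Most other peaks in the Rest locus lay at neighbours: in both mouse lists at the start of Polr2b, which encodes a subunit of RNA polymerase II, and in Hep3B at the starts of NOA1 and POLR2B. MEFs had 1 more, in intergenic sequence 36295 bp upstream of Rest (−log10 p 7.58, percentile 83.6).

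Map2, the marker of dendrites, carried the promoter peak with the highest summit −log10 p of the 8 genes in both cultures. In MEFs, the summit lay 120 bp upstream of the first TSS (chr1:66174772-66175799, 1028 bp wide), with a −log10 p of 8.01 at percentile 89.0 and an area of 1242. In Hep3B, the summit lay 111 bp upstream of the human start (513 bp wide), with a −log10 p of 6.45 at percentile 50.2 and an area of 514. Only REST and MAP2 had a promoter peak there, and that of REST had the larger area (968). MAP2 had a pair of further Hep3B peaks, both intronic: at 1673 bp from the nearest TSS (−log10 p 6.53, percentile 52.3) and at 72101 bp (−log10 p 5.96, percentile 34.5). In liver, 0 peaks fell in the whole locus of 367.0 kb, and the nearest summit was 267233 bp from a Map2 TSS, at percentile 1.54. Map2 and Neurog1 were the members with no liver peak in their locus.

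The strongest peak of all 8 loci in MEFs also lay beside Map2, past the end of the gene, with a −log10 p of 9.46 at percentile 97.8 (rank 900 of 40531). It lay in intergenic sequence and was 663 bp wide. The nearest coding TSS was that of Unc80, a subunit of a neuronal sodium leak channel, at 17345 bp, and a Map2 TSS lay 17447 bp away.

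Neurog1 and Neurog2, the neurogenins, had peaks near their starts in MEFs and none in Hep3B. The Neurog1 summit lay 116 bp upstream of its TSS (chr13:56251676-56252787, 1112 bp wide), but its −log10 p of 4.34 stood at percentile 6.41. Neurog2 had 3 MEF peaks, all nearer to its own TSS than to any other coding gene. The one in its coding exon lay 1150 bp from the TSS, just past the promoter limit (−log10 p 5.63, percentile 40.4). The other two lay 6884 and 7696 bp upstream, and the second of these was the strongest at Neurog2 (−log10 p 7.36, percentile 80.1). In liver, both Neurog2 peaks lay in introns of the neighbour Zgrf1, the closer one 35709 bp from Neurog2, and the nearest summit to Neurog1 was 101241 bp away. In Hep3B, the nearest summits were 351582 bp from NEUROG1 and 121234 bp from NEUROG2.

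Neurod1, which acts in neurons and in pancreatic islet cells, had a single MEF peak, in its coding exon 2478 bp from the TSS. With a −log10 p of 4.25 at percentile 4.81 it was the weakest of the 23 MEF peaks. Its single liver peak lay 26852 bp away, in an intron of Cerkl (percentile 32.5), and the nearest Hep3B summit was 110342 bp from NEUROD1.

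Neurod2 had the most peaks in liver and MEFs, and all but 1 of them lay nearer to another gene. Of the 18 liver peaks, 11 were in its locus. A run of 7 lay on its downstream side, on the way to Cdk12, and 4 lay at Ppp1r1b and Stard3 on the other side. The strongest liver peak of the 8 loci was in that run: chr11:98296362-98299558, 3197 bp wide, with a −log10 p of 20.6 at percentile 96.1 (rank 1943 of 50159) and an area of 17877. Its summit was 31572 bp from the Neurod2 TSS, which was the nearest coding TSS, and the place is annotated as intergenic. Next in liver came another peak of the run (−log10 p 16.6, percentile 84.0) and an intronic one in Ppp1r1b (−log10 p 15.7, percentile 78.8). The window around the strongest summit, chr11:98297976-98298175 (mm10, minus strand), held 1 nuclear receptor hexamer, here in reverse orientation, with a GC content of 56.0%.
Neurod2 downstream flank, liver: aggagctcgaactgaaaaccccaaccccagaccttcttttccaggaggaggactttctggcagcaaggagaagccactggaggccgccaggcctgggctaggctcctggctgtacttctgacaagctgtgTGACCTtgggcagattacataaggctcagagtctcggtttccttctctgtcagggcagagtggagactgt

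In MEFs, Neurod2 had 6 peaks and its own TSS was the nearest for 0 of them. The strongest 2 lay at the Stard3 promoter (−log10 p 8.36, percentile 92.2) and 13089 bp upstream of Neurod2 (chr11:98342130-98343274, −log10 p 8.06, percentile 89.4). The closest to the Neurod2 TSS was 9707 bp away, at percentile 42.2. In Hep3B, NEUROD2 had 1 peak, 12335 bp upstream of it, at percentile 40.9. Neurod2 thus showed many peaks in its surroundings and none at its start in any list.

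Myt1l, a gene of 395.0 kb in the mouse, had peaks inside its body in both mouse lists, in different places. The liver peak lay in an intron, 22659 bp downstream of the outermost TSS and 15657 bp from the nearest one, with a −log10 p of 14.9 at percentile 73.6, and was the 1 liver peak inside any of the 8 genes. The 3 MEF peaks in the body lay far downstream, 309467, 355035 and 366470 bp from the outermost TSS, at percentiles 46.2, 70.3 and 60.2. The last of them counted as a promoter peak because an internal TSS lay 260 bp from its summit. That peak was 143 bp wide, and its area of 201 was the lowest of the 23. With the outermost TSS alone, a setting chosen after seeing the data, 3 MEF members had a promoter peak and Myt1l was not among them. In Hep3B, the nearest summit was 281831 bp from a TSS of MYT1L.

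Pou3f2 had 1 peak in each mouse list, both upstream of the gene in intergenic sequence. The MEF summit lay 1068 bp from its single annotated TSS, just outside the promoter limit, with a −log10 p of 4.84 at percentile 18.1. The liver summit lay 10498 bp away, with a −log10 p of 12.0 at percentile 48.7. In Hep3B, the nearest summit was 113602 bp from POU3F2.

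**Figure D1:**
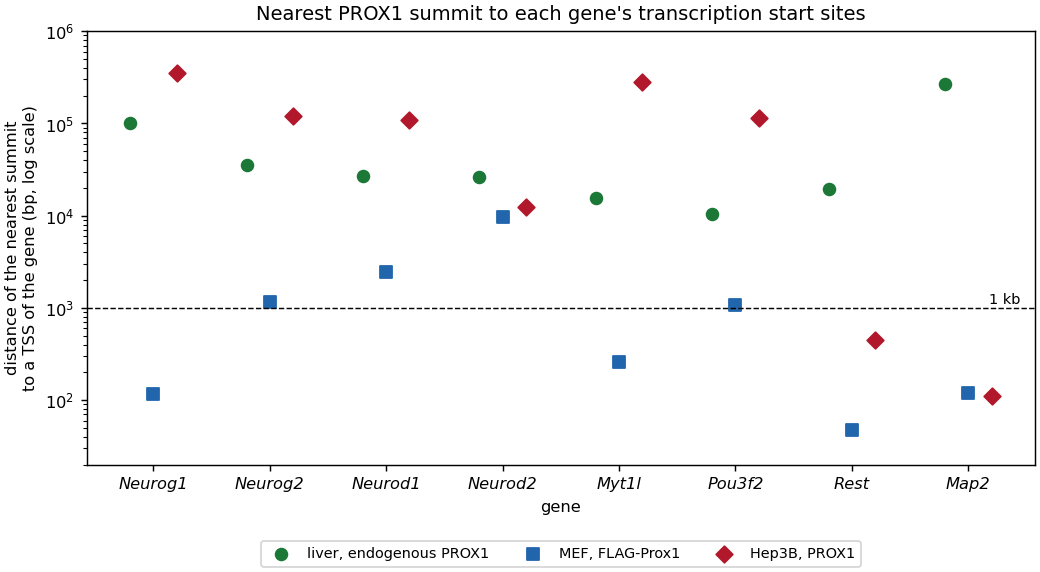
Distance in bp (log scale) from a TSS of each of the 8 genes to the nearest summit in the liver, MEF and Hep3B lists, 1 point per gene and list. MEF points fall below the dashed 1-kb line at Neurog1, Myt1l, Rest and Map2, Hep3B points at Rest and Map2, and all liver points lie at 10498 bp or more.

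The order of the nearest summits differed by list. The MEF summit was the nearest of the mouse pair for all 8 genes. In liver, distances ran from 10498 bp at Pou3f2 to 267233 bp at Map2. In MEFs, they ran from 47 bp at Rest to 9707 bp at Neurod2. In Hep3B, they ran from 111 bp at MAP2 to 351582 bp at NEUROG1, and REST, MAP2 and NEUROD2 were the genes with a peak in their locus. A peak anywhere in the locus was present for 6 of 8 genes in liver, against 69.2% of all protein-coding genes, for 8 of 8 in MEFs against 81.3%, and for 3 of 8 in Hep3B against 71.9%. Per 100 kb, the 8 loci together held 1.2 liver, 1.53 MEF and 0.402 Hep3B peaks, and the median over the loci of all coding genes was 1.85, 2.73 and 0.896. These are unlike measures: the first pools peaks over the summed length of the loci, and the second is a median of values per gene. In the mouse, the long loci of Myt1l (495.0 kb) and Map2 (367.0 kb) weigh most in the pooled values.

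**Figure D2:**
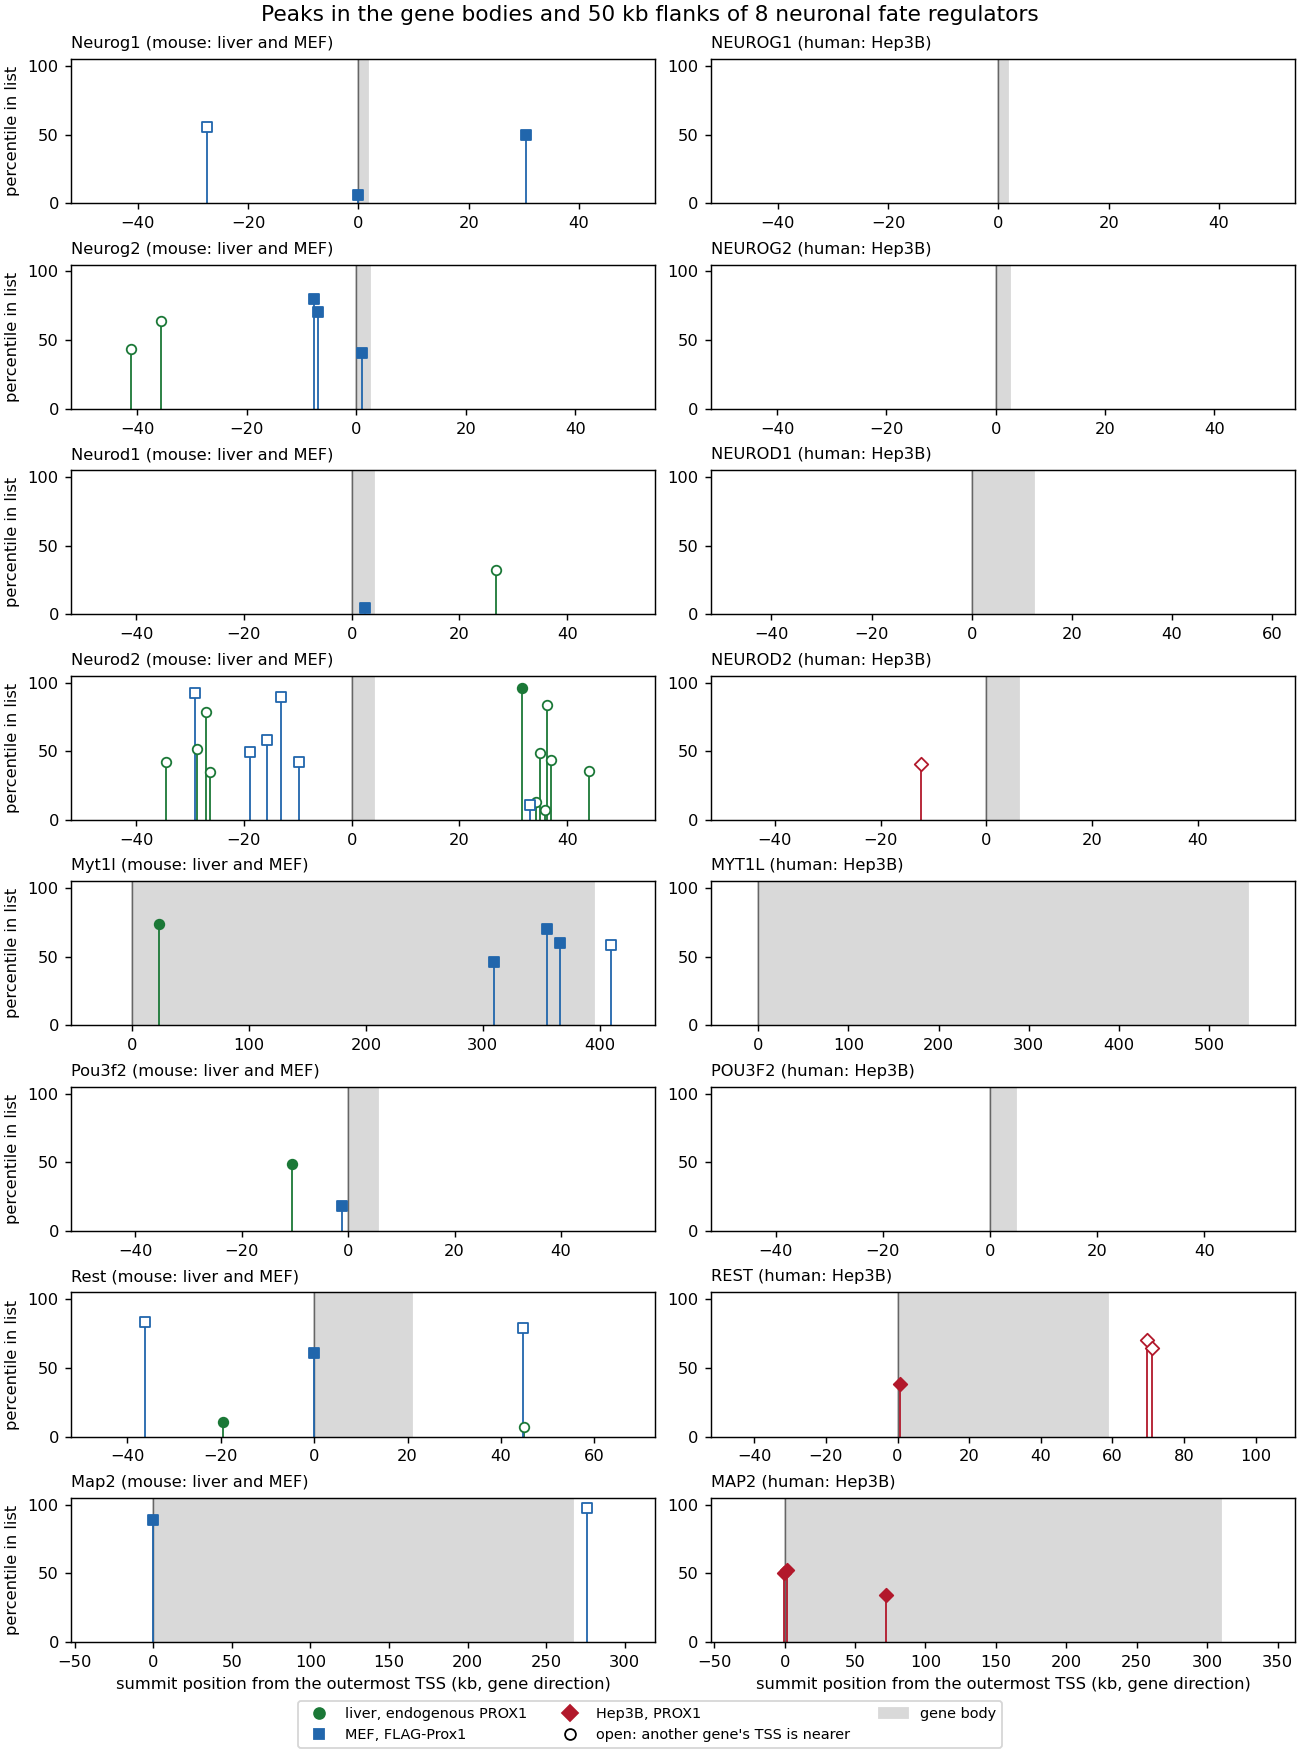
Position of every peak summit (kb from the outermost TSS, in the direction of the gene) and its percentile within its list, for the 8 mouse loci (left; liver circles, MEF squares) and the 8 human loci (right; Hep3B diamonds). Grey marks the gene body and open symbols mark summits nearer to another gene; the panels show the cluster of liver peaks on the downstream side of Neurod2 and the empty human panels of 5 genes.

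Many peaks in these loci belonged to neighbours by position. The nearest coding TSS was the member's own for 4 of the 18 in liver. The same held for 12 of the 23 in MEFs and 4 of the 7 in Hep3B. The liver count rests largely on Neurod2, whose locus held 11 of the 18 peaks, with its own TSS the nearest for 1. Summits inside a member's gene body numbered 1 in liver (Myt1l), 5 in MEFs (Neurog2, Neurod1 and 3 in Myt1l) and 3 in Hep3B (REST and 2 in MAP2). The matching shares over the loci of all coding genes were not computed, so whether these counts are usual is unknown. At the 50-kb limit, the farthest liver summit kept lay 41164 bp from Neurog2, and the nearest one left out lay 53934 bp from Rest, at a start of Polr2b. In MEFs, the corresponding summits were 36295 bp from Rest and 52759 bp from Neurog1, and in Hep3B 12335 bp from NEUROD2 and 71046 bp from REST.

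Within their lists, the peaks in the 8 loci ranged from weak to strong in liver and MEFs and stayed in the middle of the list in Hep3B. Liver percentiles ran from 6.79 to 96.1 with a median of 43.5, those of MEFs from 4.81 to 97.8 with a median of 58.3, and those of Hep3B from 34.5 to 70.1 with a median of 50.2. Peaks above the list median numbered 6 of 18, 14 of 23 and 4 of 7, respectively. Their median width was 404 bp (liver), 582 bp (MEFs) and 672 bp (Hep3B), beside 504, 646 and 634 bp over the whole lists. The strongest Hep3B peaks of the loci were those at NOA1 (−log10 p 7.17, percentile 70.1), POLR2B (6.95, percentile 64.7) and the MAP2 intron (6.53).

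**Figure D3:**
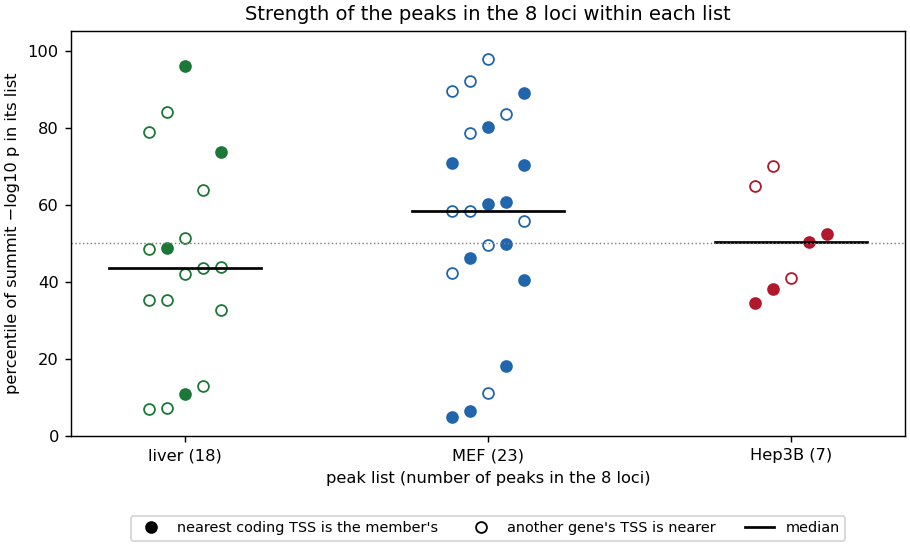
Percentile of the summit −log10 p within its own list for the 18 liver, 23 MEF and 7 Hep3B peaks of the 8 loci, 1 point per peak, with the median as a bar. Filled points are peaks whose nearest coding TSS is the member's; the medians are 43.5, 58.3 and 50.2, and the strongest MEF point, at 97.8, is open.

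A minority of positions were shared between endogenous and overexpressed PROX1 in the mouse, in these loci as over the whole lists. Of the 23 MEF peaks, 3 shared 1 bp or more with a liver peak, where 21.4% of the whole MEF list did. Of the 18 liver peaks, 3 overlapped a MEF peak, where 18.9% of the whole liver list did. The shared places were the Stard3 promoter, the Polr2b promoter and the downstream side of Neurod2, where the wide liver peak met a MEF peak at percentile 11.1. None of the MEF peaks nearest to a member's own TSS was among them.

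Motifs were counted on both strands in the 300 bases around each summit, with overlapping matches counted by start position. A match describes letters, not a site of binding. The PROX1 consensus centre AGNCGNCT occurred in 3 of the 18 windows in liver (2.97% of the liver list), 1 of 23 in MEFs (4.43%) and 1 of 7 in Hep3B (7.26%). The liver matches lay in introns of Ppp1r1b and Stard3 and at the start of Polr2b, where the MEF match also lay. At all of these mouse summits, the TSS of another gene was nearer than that of a member. The Hep3B match lay at the MAP2 promoter peak. The GC box occurred in 5 liver, 10 MEF and 4 Hep3B peaks, beside 11.0%, 28.2% and 53.6% of the lists. Rest and Map2 had the most in MEFs, 6 each. The hexamer AGGTCA occurred in 7 liver peaks, 5 of them on the downstream side of Neurod2, in 4 MEF peaks and in 1 Hep3B peak, beside 31.9%, 16.4% and 14.0%. The E-box CANNTG, the kind of site that neurogenins and NeuroD factors read, occurred in 12 liver, 18 MEF and 2 Hep3B peaks, beside 80.6%, 76.6% and 68.2%. CCAAT occurred in 5 liver, 5 MEF and 0 Hep3B peaks, beside 36.5%, 36.5% and 37.5%. These windows had a median GC content of 50.5% (liver), 59.0% (MEFs) and 62.7% (Hep3B), and those of the whole lists 46.7%, 51.7% and 61.3%.

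In the 4 related gene lists, 66 genes in all, promoter peaks stood at 5 genes in liver (7.58%, against 28.3% of all protein-coding genes), 44 in MEFs (66.7%, against 56.5%) and 23 in Hep3B (34.8%, against 45.2%). The pooled MEF share mixes unlike lists: 100.0% for the REST partners and 73.3% for synaptic and secretory genes. It was 50.0% for neuronal transcription factors and 52.9% for cytoskeletal and post-mitotic genes, both below the 56.5% of all genes. MEFs alone accounted for 21 genes, MEFs and Hep3B together for 18, all 3 lists for 3, and 20 genes had none. The shares of all protein-coding genes in these patterns were not computed, so these counts cannot be set against them. Among 20 neuronal transcription factors, 0 had a promoter peak in liver, 10 in MEFs (50.0%, near the 56.5% of all genes) and 4 in Hep3B (20.0%, against 45.2%). Sox11, a factor of newborn neurons, was the strongest in MEFs (−log10 p 9.33, percentile 97.3), and Sox4, its relative, in Hep3B (8.60, percentile 92.9).

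The partners through which REST represses its targets had the most promoter peaks of the 4 lists. Of 14 genes, 4 had one in liver (28.6%, near the 28.3% of all genes). In MEFs 14 had one (100.0%, against 56.5%) and in Hep3B 12 (85.7%, against 45.2%). Sin3a, a scaffold for histone deacetylases, was bound in all 3 lists (liver −log10 p 17.7, percentile 88.5; MEF percentile 97.4; Hep3B 9.5, percentile 99.3). Ctdsp1, a small phosphatase of the REST complex, was bound at percentiles 58.9, 98.2 and 89.2. Rcor1, the corepressor CoREST, had the strongest MEF peak of the list (−log10 p 9.72, percentile 98.5) and stood at percentile 0.807 in liver. Many of these partners are used in nearly all cells, and whether this bears on their shares was not tested.

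Genes that mark neurons were described in the same way. Of 17 cytoskeletal and post-mitotic genes, 0 had a promoter peak in liver (28.3% of all genes), 9 in MEFs (52.9%, near the 56.5% of all genes) and 3 in Hep3B (17.6%, against 45.2%). Elavl2, an RNA-binding protein of neurons, was the strongest in MEFs (−log10 p 8.0, percentile 88.8) and Map1a, a microtubule protein like Map2, in Hep3B (8.64, percentile 94.0). Of 15 synaptic and secretory genes, 11 had one in MEFs (73.3%, against 56.5%), 4 in Hep3B (26.7%, against 45.2%) and 1 in liver (6.67%, against 28.3%). The liver gene was Celsr3, a cadherin of axon guidance (percentile 14.3). Stx1a, a syntaxin of synaptic vesicle release, was the strongest in MEFs (8.58, percentile 93.8) and Scn2a, a sodium channel, in Hep3B (7.6, percentile 78.9).

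**Figure D4:**
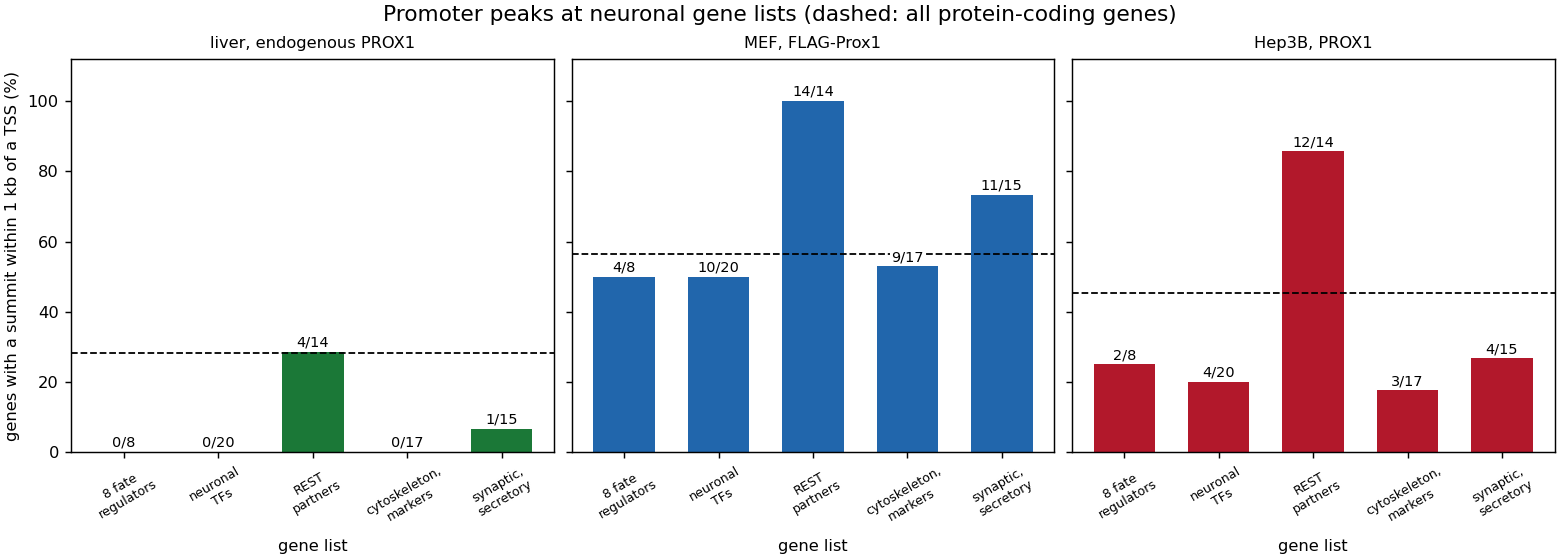
Percentage of genes with a promoter peak (1 kb) in the liver, MEF and Hep3B lists, for the 8 fate regulators and 4 related lists, with counts above the bars and the share of all protein-coding genes as a dashed line. REST partners reach 14 of 14 in MEFs and 12 of 14 in Hep3B, and the neuronal factor and cytoskeletal lists are at 0 in liver.

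By the percentiles of their promoter peaks over the 3 lists, with 0 where none was listed, the related genes most like Rest were Hdac2 (distance of 16.6 percentile points), Syt1 (18.3) and Pax6 (20.2). Those most like Map2 were Cdyl (13.3), Rcor2 (14.8) and Hdac1 (14.9). All 6 had a promoter peak in MEFs and Hep3B and none in liver, as Rest and Map2 did. Because a missing peak counted as 0, this shared pattern follows largely from the distance itself. With 3 points per gene, this likeness describes the lists.

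The labels of the materials were set beside marker genes in the same way, where promoter peaks stood at 28.3% of all genes in liver, 56.5% in MEFs and 45.2% in Hep3B. Of 10 hepatocyte genes, 10 had a promoter peak in liver and 1 (Apob) in MEFs, and of 10 fibroblast genes, 2 had one in liver, 10 in MEFs and 3 in Hep3B. In Hep3B, 2 of 10 hepatoma genes (GPC3 and F2) had one, and AFP, ALB and 6 others had none. A peak is binding and not expression, so these counts do not measure cell identity.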

How the data were processed

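CUT&RUN peak lists of 3 antibody groups were used (liver PROX1, MEF FLAG, Hep3B FLAG). The authors aligned trimmed reads to mm10 or hg38 with Bowtie2 2.4.2 and used Genrich 0.6.1 with a lenient q-value limit to call 1 consensus list per antibody group. How IgG entered the calls is not given in the sources used here, and IgG lists were not used here. As deposited, the signal column holds each peak's area under the curve of significance, with a floor of 500 in liver and 200 in the others, and the deposited −log10 p and −log10 q (p-value and q-value) are those of the summit. None was normalized between lists, so −log10 p was used for ranks within a list. Depth per sample is unknown.

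Genes and TSSs came from GENCODE M21 and 44. A promoter peak had its summit within 1 kb of any TSS of the gene, and loci reached 50 kb past the gene. Of the Hep3B peaks, 8 on other contigs were left out of the motif counts. Sequences came from RefSeq GRCm38 and from hg38. Assignment to loci, promoters and nearest TSSs, overlaps and motif matches were tested on simulated data, and reading of the annotation was not. Scripts used Python 3.11.15, pandas 2.3.3, numpy 2.4.6 and pysam 0.24.0. No test was run, since lists pool replicates. Named were all 8 genes, the 3 strongest peaks per list, every promoter peak, and from each related list the genes in all 3 lists and the strongest per list. For Rest and Map2, the 3 nearest genes by Euclidean distance of percentiles were named. The genes, related lists and settings were chosen with earlier results of these data known. Alternatives covered the q-value, area, equal list size, flank, promoter window, TSS set and overlap. Some items examined are not reported here.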

Additional observations from a re-analysis of the deposited data

How the results depend on the processing

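No paired analysis was possible because each list pools its replicates, and for the same reason no replicate could be left out. The 0 promoter peaks in liver and the 2 in Hep3B (REST and MAP2) held in all 7 alternatives tried. The 4 promoter peaks in MEFs became 2 (Rest and Map2) with an area of at least 500 in every list and 1 (Map2) with 14369 top peaks per list, and ranged from 3 to 6 otherwise. An area of at least 500 left 10 MEF and 4 Hep3B peaks in the loci, and equal list sizes left 4 liver and 9 MEF peaks. A flank of 10 kb gave 1 liver, 13 MEF and 4 Hep3B peaks, and 100 kb gave 42 MEF peaks. Peaks nearest to the member's own TSS numbered 4, 12 and 4. The 3 MEF peaks shared with liver became 0 with equal list sizes, a 10 kb flank, peaks nearest to the member only, or summits within 100 bp. Settings that keep fewer peaks or ask for a stricter match can only lower these counts. A higher floor in liver limits weak peaks there, and unknown depth limits what absence means in any list.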
